A study of Mus musculus with 33 samples.

Results

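Of 30815 genomic regions counted in chromatin immunoprecipitation sequencing (ChIP-seq) of 3 cardiac transcription factors, 465 met a rule built on Tbx5. At these regions Tbx5 expressed alone was enriched over input chromatin to at least a set cut. Gata4 alone and Mef2c alone stayed below that cut, and in cells carrying all 3 factors each of them did. Enrichment was log2((CPM + 5)/(input CPM + 5)), where CPM is counts scaled to a common total over the regions, from counts summed per group, with all 9 inputs summed as one. A factor was called bound at a ratio of 1.5 or more, which is the cut on the log2 scale used below. The regions were chosen by these ChIP values, which fixed high Tbx5 alone and low Tbx5 with all 3 factors. Values and model calls on these ChIP groups are therefore given as a description of the chosen regions, and not as a test of them.

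Tbx5 is a T-box transcription factor needed for heart and forelimb development, and its loss on one allele causes the heart and hand malformations of Holt-Oram syndrome. It binds short T-box elements in DNA. In cardiac cells it acts with Gata4, a zinc-finger factor that binds GATA sequences, and with Mef2c, a MADS-box factor. Forced expression of the 3 together moves fibroblasts toward a cardiomyocyte-like state.

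All cells were of 1 immortalised line of neonatal cardiac fibroblasts (Cd-1 strain, alpha-MHC-GFP reporter, large T antigen). They were infected with retroviruses for Gata4, Mef2c and Tbx5 together or for a single one, and all groups, inputs included, were kept with sb431542 (a TGF-beta inhibitor) and xav939 (a Wnt inhibitor). Cells were harvested unsorted at day 2, so each library averages over whatever share of cells carried the factors, which the labels do not give. With all 3 factors there were 6 Gata4, 4 Mef2c, 4 Tbx5 and 6 input libraries. With a factor alone there were 4 Gata4, 3 Mef2c and 3 Tbx5 libraries, and a single input library per factor. Replicates are biological ones of this 1 line per the labels, so their spread holds no variation between lines or animals.

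Counts over the regions ran from 97474 to 2377616 per library, and those of the inputs from 97474 to 301678. Where libraries of a group agreed within sampling noise they were counted as 1 sample, which left 29 samples from 33 libraries. Replicate 4 of Gata4 alone stood apart from the other 3 and was not used by the rule. Its median enrichment was −0.03 over all regions and 0.03 over the 465, close to that of input.

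Tbx5 alone was bound at 6304 regions, and at 5307 of them it was bound with all 3 factors too. Of the other 997, 465 (46.6%) are the regions described here. A further 417 (41.8%) were bound by Gata4 or Mef2c with all 3 factors, and 115 (11.5%) had been bound by Gata4 or Mef2c alone as well. Seen from the 4968 regions bound by Tbx5 only among the factors alone, 3576 (72.0%) were bound by Tbx5 only with all 3 factors and 465 (9.36%) by none. The share that ended bound by none was 46.8% of the 5187 regions of Gata4 only and 23.9% of the 4999 of Mef2c only. These shares follow the same cut and were not tested against each other.

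At the 465 regions Tbx5 alone had a median enrichment of 0.99, from 0.59 to 2.85, with quartiles of 0.75 and 1.45. With all 3 factors the median for Tbx5 was 0.06, from −1.67 to 0.58. The drop had a median of 1.47 and was at least 2 at 92 regions, at least 1 at 315 and under 0.5 at 79. Over all 30815 regions the median drop was −0.02, and over the 3576 regions that kept Tbx5 only it was 0.25. The signals of Gata4 and Mef2c were below input at most of the 465 in both settings. Medians were −1.14 for Gata4 alone, −0.85 with all 3, −1.79 for Mef2c alone and −1.45 with all 3. At the 10106 regions bound by no factor in either setting they were −1.06, −1.09, −1.84 and −1.63 in the same order. Values below input are thus usual for unbound regions on this scale.

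**Figure D1:**
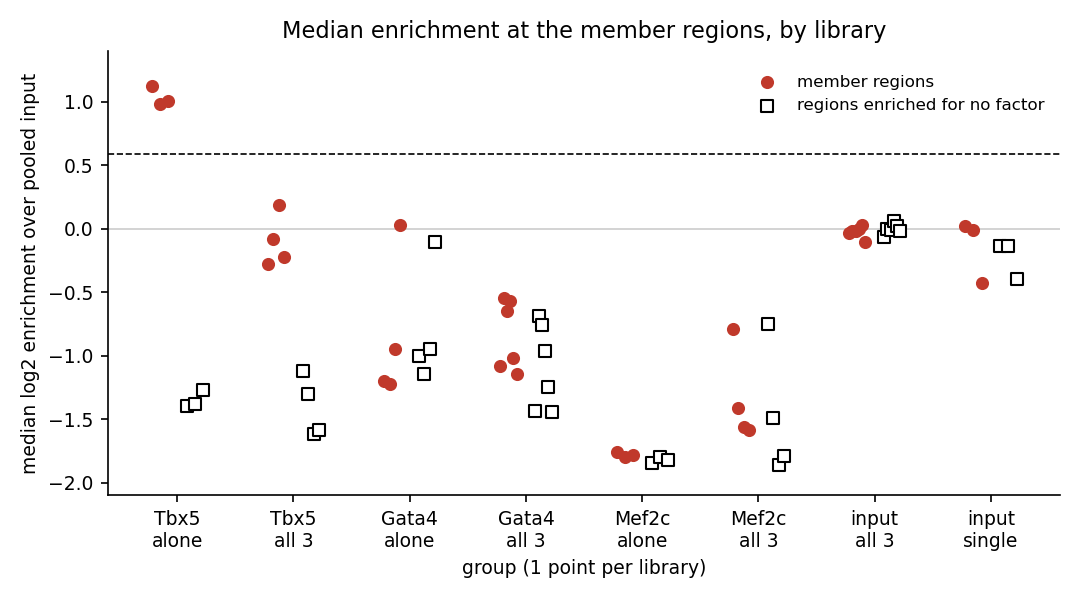
Median log2 enrichment over the pooled inputs (vertical axis) by group (horizontal axis), 1 point per library, at the 465 regions (red circles) and at the 10106 regions bound by no factor in either setting (open squares), with a dashed line at the cut. At the 465, the Tbx5 alone libraries sit at 0.98 to 1.12. The Tbx5 libraries with all 3 factors sit near the inputs, at −0.28 to 0.18. At the 10106 regions these same libraries sit at −1.61 to −1.12, so near the inputs is above their level at unbound regions.

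By library, the medians of the Tbx5 groups did not overlap, an order that the rule favours because it summed these same libraries. Medians over the 465 regions were 1.12, 0.98 and 1.01 in the 3 Tbx5 alone libraries and −0.28, −0.08, 0.18 and −0.22 in the Tbx5 libraries with all 3 factors (replicates 2, 3, 4 and 5). Replicate 4 with all 3 factors was the highest of its group and lay below every Tbx5 alone library. At regions chosen without it, its median was higher, at 0.55. Among the inputs, that of the Tbx5 alone cells was the lowest at −0.43, and the other inputs lay between −0.10 and 0.03. It was the lowest input at the 10106 regions bound by no factor too, at −0.39, so this is not particular to the 465. With 97474 counts it was also the shallowest library.

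The 465 regions make up 1.51% of regions and 1.58% of their bases. The share of a library's counts that fell in them had the same order, which the rule favours here too. It was 4.20, 3.97 and 3.93% in the Tbx5 alone libraries (mean 4.03% ± 0.145, SD, n = 3). It was 1.34, 1.52, 1.84 and 1.36% for Tbx5 with all 3 factors (1.52% ± 0.233, SD, n = 4). The Tbx5 groups did not overlap, and the Tbx5 libraries with all 3 factors surrounded the 1.55% ± 0.0577 (SD, n = 3) of the inputs of the same cells. That is not their level at unbound regions. At regions bound by no factor these Tbx5 libraries lay below the inputs, with median enrichments of −1.61 to −1.12. Shares were 0.990% ± 0.132 (SD, n = 5) for Gata4 and 0.606% ± 0.161 (SD, n = 4) for Mef2c with all 3 factors. They were 0.973% ± 0.441 (SD, n = 4) for Gata4 alone, where replicate 4 held 1.62%, and 0.366% ± 0.0088 (SD, n = 3) for Mef2c alone.

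The rule pooled the inputs and did not choose on a difference between those of the 3-factor and the single-factor cells. That difference was tested, but the same inputs formed the pooled value that chose the regions. Of its 9 libraries, 6 were from cells with all 3 factors. The test is thus not free of the choice of regions. The share of input counts in the 465 regions was 0.0394 percentage points higher with all 3 factors, with p = 0.9 in a two-sided exact permutation test of 3 samples against 3, which cannot go below 0.1. The single-factor inputs held 1.73% (Gata4, 95% Wilson interval 1.66 to 1.8), 1.59% (Mef2c, 1.52 to 1.66) and 1.22% (Tbx5, 1.15 to 1.29). The input of the Tbx5 alone cells was thus below the other 2 beyond counting error. Without it the difference turned to −0.107 points (p = 0.4, exact permutation test). Region by region, edgeR's quasi-likelihood test called 0 of the 853 regions deep enough to be tested (0% in each direction), 18 of them among the 465. At an unadjusted p under 0.05 it found 43 of the 853 and 1 of the 18, and DESeq2 called 0 and found 29 and 0 at that level. Without the filter on low counts 0 of 30815 were called, with 1686 regions and 32 of the 465 at an unadjusted p under 0.05. In CPM, every input sample with all 3 factors lay above every single-factor input at 39 of the 465 (7.42% of all regions) and below at 24 (5.36% of all regions), near the background in both directions. Only 18 of the 465 had input counts deep enough for the filtered test.

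The word vacated describes only some of the 465 regions, and they are better named by the rule. Tbx5 with all 3 factors had an enrichment of 0 or more at 237 (51.0%), of −0.5 to 0 at 50, and under −0.5 at 178 (38.3%). It lay within 0.2 below the cut at 159 regions. For comparison, the 10106 regions bound by no factor in either setting had a median Tbx5 enrichment of −1.45 with all 3 factors, and 90% of them were below −0.21. Of the 465, 208 were at or below that −0.21 and 10 at or below the −1.45. Per library, 268 regions reached the cut in 0 of the 4 Tbx5 libraries with all 3 factors, 138 in 1, 55 in 2 and 4 in 3. In the Tbx5 alone libraries, 285 regions reached it in 3 of 3, 128 in 2 and 52 in 1. With TMM factors in place of total counts the same rule gave 717 regions, which held 189 of the 465.

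**Figure D2:**
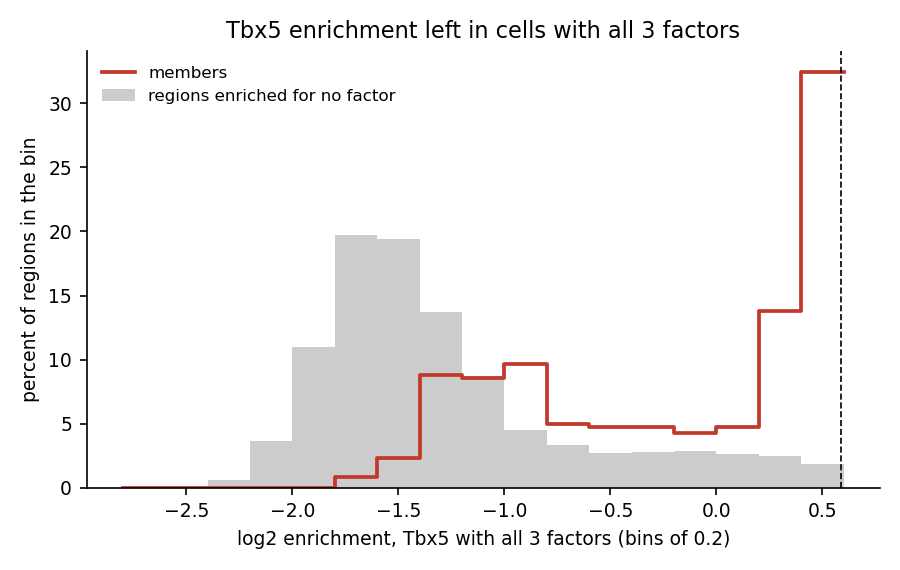
Percent of regions (vertical axis) by Tbx5 log2 enrichment with all 3 factors in bins of 0.2 (horizontal axis), at the 465 regions (red line) and at the 10106 regions bound by no factor in either setting (grey bars), with a dashed line at the cut. Of the 465, 51.0% lie at 0 or more, piled up toward the cut, and 38.3% lie below −0.5.

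The values at the cut show how little can separate a region inside from one outside. Just inside it for Tbx5 with all 3 factors were chr13:96332946-96333350, chr2:154538053-154538291 and chr10:80879603-80879982, each at 0.58. At the first of these, CPM were 167, 170.3 and 177 with Tbx5 alone and 44.8, 54.0, 79.4 and 43.3 with all 3. These groups stood far apart, although the region was the nearest of the 465 to being called bound in both. Just outside were chr2:131817663-131817866, chr5:68238466-68238774 and chr10:75905295-75905756, each at 0.59. At the second of these, CPM were 88.6, 35.8 and 44.7 alone and 55.1, 55.1, 32.4 and 39.1 with all 3, with overlapping groups. At the lower edge for Tbx5 alone, chr10:80645461-80645661 had 51.5, 41.8 and 54.1 CPM alone and 25.9, 49.8, 31.3 and 37.7 with all 3, also overlapping. A region at the same edge, chr1:140745191-140745391, had 49.4, 53.8 and 44.7 CPM alone and 10.3, 5.30, 8.36 and 7.68 with all 3, with no overlap. Just outside it, chr6:93223903-93224314 at 0.58 held 82.4, 65.7 and 89.4 CPM alone and 12.1, 19.1, 21.9 and 20.3 with all 3.

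The rule takes regions above the cut alone and below it with all 3 factors, so regions just above it alone need the smallest drop to be chosen. Of the regions bound by Tbx5 only among the factors alone, 235 of 1270 (18.5%) with an enrichment from the cut to 1 were among the 465. The share was 120 of 1781 (6.74%) from 1 to 1.5, 79 of 1229 (6.43%) from 1.5 to 2 and 31 of 688 (4.51%) at 2 or more. Medians with all 3 factors were −0.53, −0.11, 0.36 and 0.45 in the same order, and none of these differences was tested. Of the 31 strongest, 27 were at 0 or more with all 3. Across the 465 the Spearman correlation of the 2 enrichments was 0.31. It is a description, since both share the input value of a region, which by itself can give a positive correlation.

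**Figure D3:**
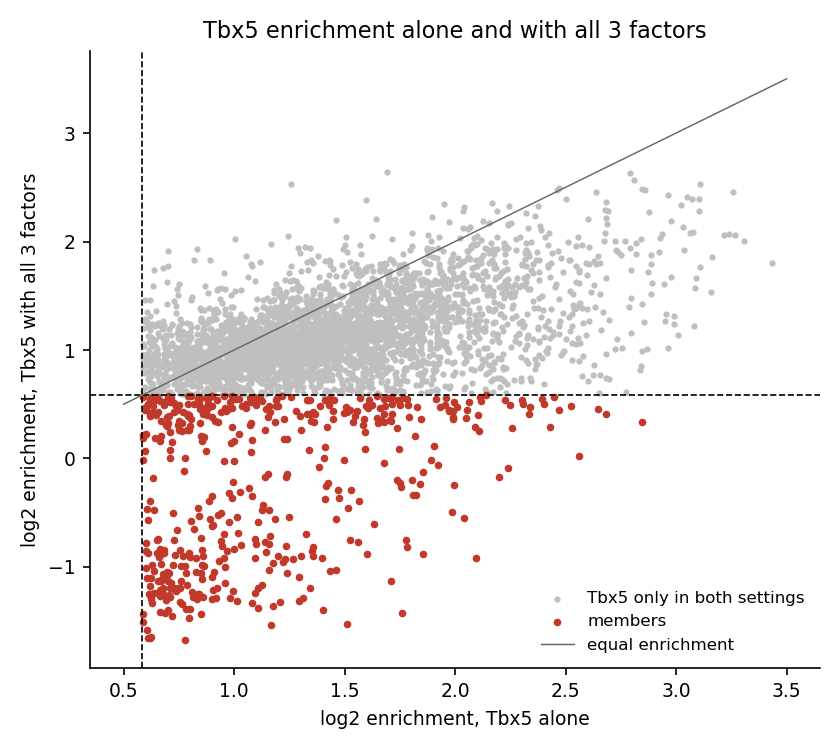
Tbx5 log2 enrichment alone (horizontal axis) and with all 3 factors (vertical axis), 1 point per region, at the 465 regions (red) and at the 3576 bound by Tbx5 only in both settings (grey), with dashed lines at the cut and a solid line at equal enrichment. Most of the strongest of the 465, 27 of the 31 at 2 or more alone, sit between 0 and the cut with all 3 factors.

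The 6 strongest regions alone spanned enrichments of 2.47 to 2.85. The first, chr13:15689321-15689720 (400 bp), had 229, 382 and 278 CPM with Tbx5 alone and 27.6, 38.1, 86.7 and 32.1 with all 3 factors. Its 9 inputs had a lowest value of 10.3, a median of 37.5 and a highest of 63.9 CPM. Every Tbx5 alone library was above every other one, and with all 3 factors 3 of 4 libraries lay within the range of the inputs (log2 fold change −2.72, SE 0.31, in edgeR's fit).

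The next 2 showed the same order. At chr6:108794297-108794615 (319 bp), CPM were 239, 314 and 219 alone and 29.3, 28.6, 74.2 and 51.0 with all 3 (−2.51, SE 0.27). At chr4:141074235-141074764 (530 bp), they were 229, 358 and 400.2 alone and 34.5, 49.8, 109 and 62.9 with all 3 (−2.40, SE 0.29). In each of these 3 regions replicate 4 with all 3 factors was the highest of its group, and the groups did not overlap.

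At chr1:180571313-180571617 (305 bp), the region with the lowest p of the 465 in that fit, the libraries of a group were closer together. It had 210.1, 188 and 238 CPM alone and 36.2, 30.7, 42.8 and 25.8 with all 3, against a median of 33.1 in the inputs (−2.72, SE 0.22). The means were 212 ± 24.8 (SD, n = 3) and 33.9 ± 7.31 (SD, n = 4). The other 2 of the strongest 6, chr3:52906076-52906356 and chr9:43682395-43682598, had means of 249 ± 39.2 and 141 ± 51.1 CPM alone (SD, n = 3). With all 3 factors these were 55.5 ± 18.8 and 28.8 ± 10.2 (SD, n = 4).

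The 6 regions with the largest drop in enrichment ended below input, at −1.53 to −0.88 for Tbx5 with all 3 factors. The 10106 regions bound by no factor had a median of −1.45 for the same group, so such values are usual for unbound regions. At chr13:114017411-114017613 (203 bp), CPM were 136, 143 and 108 alone and 12.1, 8.48, 18.8 and 3.49 with all 3 (log2 fold change −3.71, SE 0.38). The inputs there ran from 20.6 to 53.5 with a median of 37.9, so every Tbx5 library with all 3 factors was below every input. At chr11:112924389-112924640 (252 bp), CPM were 96.8, 77.7 and 94.2 alone and 5.17, 7.42, 11.5 and 3.49 with all 3, where the inputs had a lowest value of 20.6 (−3.76, SE 0.36). The groups were again ordered alone, inputs, all 3, with no overlap.

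The same order of means was seen at the others of these 6. Mean CPM went from 133 ± 41.9 to 11.3 ± 5.67 at chr5:136712668-136712879 and from 138 ± 28.7 to 15.5 ± 5.92 at chr11:64525279-64525588. They went from 85.8 ± 14.8 to 8.97 ± 3.56 at chr14:23565507-23565724 and from 96.2 ± 28.3 to 10.6 ± 4.28 at chr4:120647485-120647755 (SD, n = 3 alone and 4 with all 3). The median inputs at these 4 were 20.5, 41.0, 30.2 and 25.8 CPM.

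**Figure D4:**
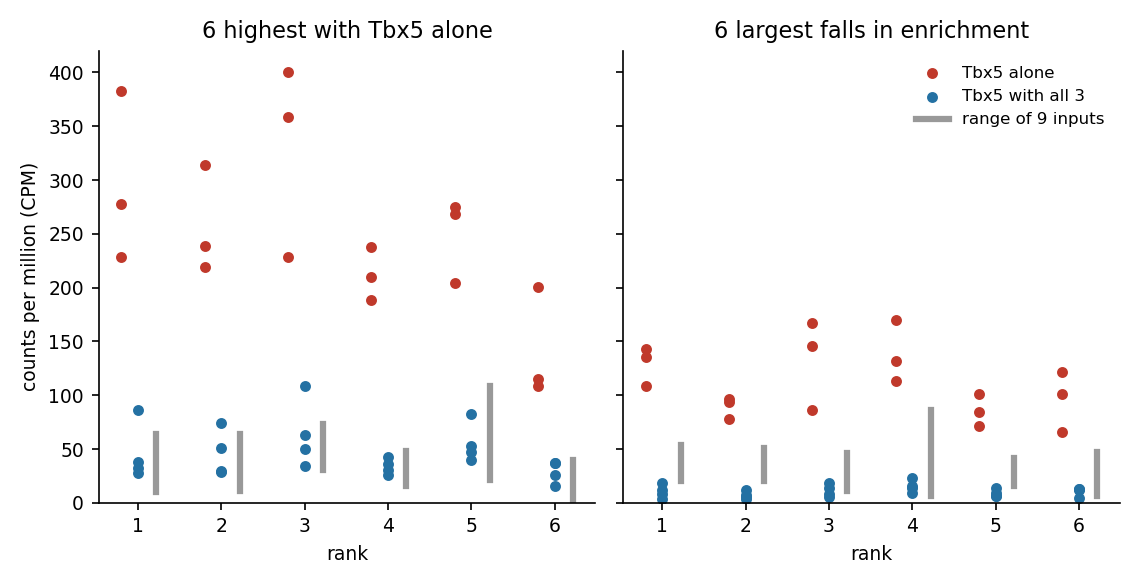
CPM (vertical axis, linear) at the 6 regions with the strongest Tbx5 signal alone (left, by rank) and the 6 with the largest drop (right, by rank), with 1 point per Tbx5 library alone (red) and with all 3 factors (blue) and a grey bar for the range of the 9 inputs. At the left, 3 of the 4 blue points of the first region, chr13:15689321-15689720, lie within the range of the inputs, and at the right all blue points of the first, chr13:114017411-114017613, lie under it.

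Fitted over the whole table with edgeR, 354 of the 462 regions that could be tested were lower for Tbx5 with all 3 factors than alone at an adjusted p under 0.05, and 0 were higher. Over all 16395 regions tested, 14.9% were lower and 18.8% higher. The rule chose on this contrast, so nothing is read from the excess over the background. In CPM, every library with all 3 factors was below every Tbx5 alone library at 362 of the 465 (11.4% of all regions) and above at 0 (14.8% of all regions). The median log2 fold change of the 465 was −1.66, beside 0.01 for all tested regions.

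The rule also used both Tbx5 groups against the pooled inputs, so calls of that comparison describe the 465 and nothing is read from their number. Tbx5 alone was called higher than the inputs at 450 of 450 tested regions (33.4% of all tested) and lower at 0 (34.8% of all tested). Tbx5 with all 3 factors was called higher than the inputs at 214 of 430 (35.4% of all tested), lower at 64 (37% of all tested) and neither at the other 152. All 214 had an enrichment of 0 or more, and all 64 were under −0.5. Of the 354 regions called lower with all 3 factors than alone, 117 were called higher than the inputs and 63 lower. Of the 111 not called lower than alone, 97 were called higher than the inputs. These counts depend on how libraries are scaled. By library totals, which the rule uses, Tbx5 alone was higher than the inputs at 346 of 450 (24.0% of all tested) and lower at 0 (52.7% of all tested). For Tbx5 with all 3 factors, 11 regions were then higher than the inputs (24.6% of all tested) and 134 lower (48.8% of all tested). Its median over all tested regions moved from −0.08 to −0.68.

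Because the same libraries chose the regions, the choice was repeated with 1 Tbx5 alone and 1 Tbx5 library with all 3 factors left out, and the left-out pair was then compared at the regions chosen without it. The 12 pairs cross 3 Tbx5 alone libraries with 4 Tbx5 libraries with all 3 factors. Each library thus recurs, and the pairs are not 12 independent repeats. Over the 12 pairs, 449 to 635 regions were chosen. The left-out Tbx5 alone library was higher in log2 CPM by a median of 0.78 to 1.52 (median of the pairs 1.24), and at 83.1 to 94.7% of the chosen regions. Over all regions the same difference was −0.16 to 0.07, and at the regions that kept Tbx5 only it was 0.14 to 0.40. The 3 pairs that left out replicate 4 with all 3 factors gave 0.93, 0.78 and 0.85, the smallest values of the 12.

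**Figure D5:**
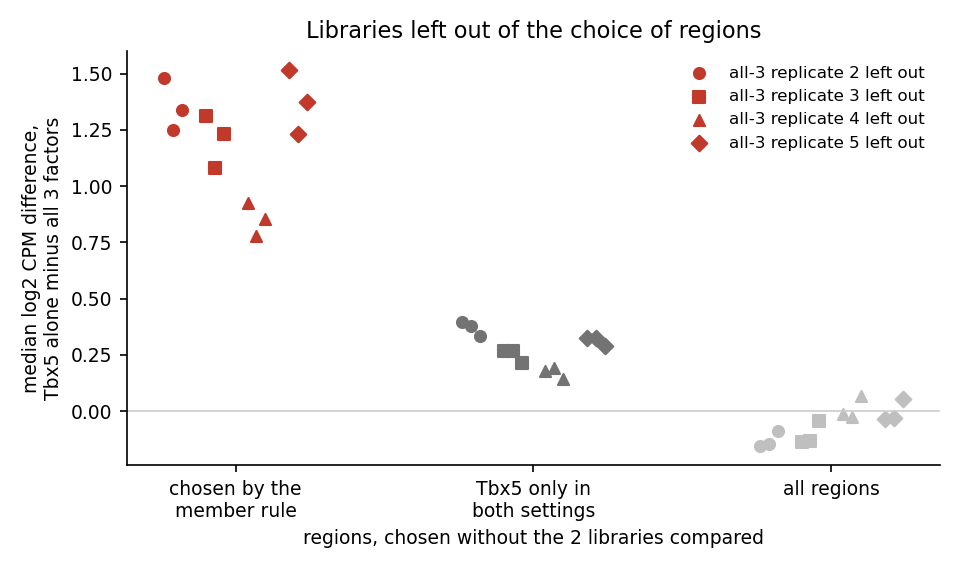
Median log2 CPM difference between the left-out Tbx5 alone library and the left-out Tbx5 library with all 3 factors (vertical axis), 1 point per pair of libraries, at the regions chosen without them, at those that kept Tbx5 only and at all regions (horizontal axis), with the symbol giving the replicate with all 3 factors. The 12 pairs, which share libraries, lie at 0.78 to 1.52 at the chosen regions, and the 3 lowest leave out replicate 4.

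Left out singly, Tbx5 alone replicates 1, 2 and 3 had median enrichments of 1.03, 0.86 and 0.93 at the regions chosen without them. They reached the cut at 75.3, 67.8 and 74.0% of these. Only the ChIP library was left out, and the enrichments used the same 9 pooled inputs that chose the regions. A low input value at a region thus raises its enrichment in any left-out library. The 4 Tbx5 libraries with all 3 factors (replicates 2, 3, 4 and 5) had −0.27, 0.03, 0.55 and −0.13 and reached it at 13.4, 23.7, 48.8 and 18.4%. Replicate 4 thus came close to the cut at the 611 regions chosen without it. Leaving that library out was also the change that added most regions among the libraries left out in turn. At regions that kept Tbx5 only, the left-out libraries with all 3 factors had medians of 0.99, 1.09, 1.21 and 1.05, above their values at the chosen regions in each case.

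Gata4 and Mef2c stayed below the cut by the rule, but their levels were higher where that of Tbx5 was higher. At the 237 regions with Tbx5 at 0 or more, Gata4 with all 3 factors had a median of −0.45 (alone −0.98) and Mef2c −1.16 (alone −1.73). At the 178 regions with Tbx5 under −0.5 the medians were −1.19 (alone −1.34) and −1.72 (alone −1.84). Across the 465, Spearman correlations of Tbx5 with all 3 factors were 0.60 with Gata4 and 0.57 with Mef2c. The enrichments of a region share 1 input value, which by itself can give positive correlations and order the medians above. Nothing is read from them, and they were not tested. Gata4 reached 0 or more at 73 regions and Mef2c at 20.

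In the fit of Gata4 with all 3 factors against Gata4 alone, 23 of 234 tested regions were higher (16.5% of all tested) and 6 lower (15.2% of all tested), with a median log2 fold change of 0.11. Without replicate 4 of Gata4 alone, 65 of 243 were higher (27.6% of all tested) and 7 lower (23.7% of all tested). Without replicate 1, 2 or 3 instead, 9 of 295, 8 of 271 and 10 of 286 were higher (8.39, 8.30 and 8.94% of all tested). For these higher calls, the share of all regions called moved in the same direction as that of the 465. Lower calls in the same 3 fits were 11, 4 and 5 (9.43, 8.78 and 11.85% of all tested). Without replicate 1 the lower calls thus rose from 6 to 11 while their share of all tested regions fell. For Mef2c, 51 of 192 were higher (31.3% of all tested) and 18 lower (28.8% of all tested), with a median of 0.36 beside 0.15 for all tested regions. By library totals these were 69 (39.0% of all tested) and 8 (21.9% of all tested), with a median of 0.47 for all tested regions. Every sample with all 3 factors lay above every one alone at 21 of the 465 for Gata4 (7.01% of all regions) and at 121 for Mef2c (29.7% of all regions). It lay below at 8 for Gata4 (6.24% of all regions) and at 11 for Mef2c (14.2% of all regions). The rule used these contrasts too, and nothing is read from the shares.

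The region nearest to being bound by both other factors was chr6:4818591-4819164 (574 bp). Gata4 there had 45.5, 59.2, 50.6 and 58.4 CPM alone, and 81.4, 127 and 141 as the lowest, median and highest of its 6 libraries with all 3. Mef2c had 12.0, 16.5 and 18.1 CPM alone and 65.3, 90.6, 155 and 109 with all 3. Tbx5 had 146, 98.6 and 118 alone and 117, 135, 109.7 and 112 with all 3. Gata4 and Mef2c were higher with all 3 factors in every library, while the Tbx5 groups overlapped, with a log2 fold change of −0.09 (SE 0.20).

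The other regions highest for Gata4 or Mef2c were less even. At chr10:119848113-119848368, Gata4 had 35.2, 40.6, 52.8 and 26.9 CPM alone and 42.5, 56.8 and 66.2 as lowest, median and highest with all 3. At chr12:3711270-3711525, Mef2c had 43.6, 37.2 and 39.3 CPM alone and 39.2, 27.7, 44.2 and 42.9 with all 3. Both of these pairs of groups overlapped. At chr6:89295398-89295659, Mef2c had 21.8, 15.5 and 19.1 CPM alone and 26.1, 32.7, 58.2 and 33.6 with all 3, with no overlap.

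The 465 regions had a median length of 256 bp (201 to 1014), beside 234 bp for all regions, 273 bp for those that kept Tbx5 only and 202 bp for those bound by no factor. Regions of at most 210 bp made up 32.5% of the 465, 25.8% of those that kept Tbx5 only and 40.4% of all. The widest were chr5:144578298-144579311 (1014 bp), chr9:114842669-114843425 (757 bp) and chr5:104049214-104049911 (698 bp). At the first, CPM were 189.5, 203 and 212 alone and 105, 141, 118 and 109.6 with all 3, where the inputs had a median of 87.9 and a highest value of 133. The Tbx5 groups did not overlap, and 1 of 4 libraries with all 3 factors lay above the highest input.

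Chromosome 6 held 52 of the 465, which is 18% of its 289 regions bound by Tbx5 only among the factors alone, against 9.36% over the genome. The share was 14.4% on chromosome 13 (29 of 201) and 2.86% on X (2 of 70). On chromosome 6 the regions were spread along the chromosome, with 3 to 12 in each of 8 windows of 20 Mb. The single-factor inputs there held 1.01 times the share of counts of the inputs with all 3 factors, and on chromosome 13 they held 1.16 times. Shares of chromosomes were not tested.

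Few of the regions were neighbours of each other. Within 10000 bp, edge to edge, 12 of the 465 (2.58%) had another of them, in 6 pairs. One of the 465 lay within that distance of 0.996% of all regions and 1.79% of those that kept Tbx5 only. Within 1000 bp these shares were 1.29% of the 465, 0.243% of all regions and 0.671% of those that kept Tbx5 only. Of the 465, 205 (44.1%) had any other region within 10000 bp, beside 43.9% of all regions and 54.6% of those that kept Tbx5 only. A region bound by Tbx5 with all 3 factors lay within 10000 bp of 18.7% of the 465, beside 31.3% of those that kept Tbx5 only and 17.0% of all. A region bound by Tbx5 with all 3 factors and not alone was within it for 3.23% of the 465 and 6.32% of those that kept Tbx5 only.

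The tightest pair, chr10:95965090-95965292 and chr10:95965556-95965758, spanned 669 bp. CPM at the first were 88.6, 62.7 and 80.0 alone and 19.0, 9.54, 10.4 and 15.4 with all 3. At the second they were 78.3, 38.8 and 40.0 alone and 10.3, 12.7, 15.7 and 7.68 with all 3. In both the groups did not overlap. In the pair chr15:23381935-23382215 and chr15:23383055-23383406, mean CPM were 107 ± 18.2 and 141 ± 12.3 alone (SD, n = 3) and 23.7 ± 7.55 and 42.0 ± 19.2 with all 3 (SD, n = 4). In the pair chr14:23468877-23469434 and chr14:23470405-23470747, they were 276 ± 44.6 and 73.4 ± 24.2 alone and 92.4 ± 52.8 and 40.2 ± 16.5 with all 3 (SD, n = 3 and 4). The last pair had a region bound by Tbx5 with all 3 factors within 10000 bp, and the other 2 pairs had 0.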

How the data were processed

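The authors deposited 1 table of raw read counts, with a line per region and a column per library. The submitters' processing notes list FastQC, Bowtie2 2.2.4 and featureCounts as tools and mm9 as the build. How the aligner was set, duplicates were handled and regions were picked is not given in the sources used here. Coordinates are 1-based mm9 positions as deposited, and no gene or sequence was assigned.

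Groups came from the sample labels. Libraries of a group that agreed within sampling noise (chi-square test, regions of at least 10 counts) were summed as 1 sample for fits, means and SDs: Gata4 with all 3 factors 1 and 6, inputs of those cells 1 and 3, and inputs 2, 4 and 5. The rule for the 465 regions summed all libraries but Gata4 alone replicate 4. The regions, lists and tests were chosen with earlier results of these data known.

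Fits used edgeR 4.0.16 (R 4.3.3): quasi-likelihood F test, robust, TMM scaling, filter at a minimum count of 10 and total of 15, two-sided, Benjamini-Hochberg over all regions tested, called at an adjusted p under 0.05. The fitting code was tried on simulated counts for the Tbx5 and input comparisons only, with far fewer regions changed than the Tbx5 fit called. No result above rests on that trial. The SE is the log2 fold change divided by the square root of F. Alternatives were DESeq2 1.42.0, library totals, no filter, a replicate block and each sample left out. The 95% intervals cover only counting error, and reads without molecular identifiers are not independent molecules.

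Regions were named by rule: the 6 highest for Tbx5 alone, the 6 with the largest drop, the 6 with the lowest adjusted p, 3 inside and 3 outside each edge of the cut, the 3 widest, the 3 tightest runs, members called between inputs (0) and the 3 highest for Gata4 and for Mef2c with all 3 factors. Some are given only in ranges or left out.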

Additional observations from a re-analysis of the deposited data

Results flagged for a closer look

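Values per sample were examined in 50 groups of 4 to 10 samples for a highest or lowest sample far from the others by Dixon's test. Chance alone picks out about 1 group in 20, and 4 were picked out. The share of counts in the 465 regions in Mef2c with all 3 factors replicate 2 was 0.844%, far above the other 3 libraries of its group. Replicate 4 of Tbx5 with all 3 factors was far below its group at chr4:120647485-120647755 with 4.18 CPM and far above it at chr10:80879603-80879982 with 81.5 CPM. At chr6:4818591-4819164, Gata4 with all 3 factors replicate 2 was far below its group with 81.4 CPM.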

How the results depend on the processing

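The choice of regions moved with the settings: a cut of 1 gave 1302 regions (230 of the 465 among them), TMM factors on the summed groups gave 717 (189), and inputs of the same cells gave 642 (346). Pseudocounts of 1 and 10 gave 452 (401) and 567 (418), and leaving out a library 456 to 611. The count of regions lower for Tbx5 with all 3 factors than alone was 330 to 346 under the other settings (7.73 to 13.3% of all tested). It was 319 to 371 with samples left out (8.27 to 19.2% of all tested). Same-numbered samples did not clearly deviate together. Their r was −0.08 and 0.00 for Tbx5, 0.09, −0.19, −0.02 and 0.16 for Gata4, and −0.002 and −0.01 for Mef2c. So few samples cannot exclude pairing by number, and the main fits did not use it. With a replicate block, Tbx5 gave 330 lower (12.7% of all tested) and Mef2c 10 lower (24.6%). Gata4 then gave 13 higher (12.6% of all tested) and 3 lower (10.2%). With samples left out, Gata4 gave 8 to 65 higher (8.30 to 27.6% of all tested) and 3 to 11 lower (8.78 to 23.7%). Mef2c gave 11 to 21 lower (23.2 to 32.0% of all tested). Mef2c without a filter gave 32 higher (14.3% of all tested) and 35 lower (22.7%), and by library totals 8 lower (21.95%). Against the inputs, Tbx5 with all 3 factors by library totals gave 11 higher (24.6% of all tested) and 134 lower (48.8%). With samples left out it gave 26 to 86 lower (32.5 to 37.3% of all tested). Tbx5 alone against the inputs gave 346 of 450 higher by library totals (24.0% of all tested). Without its replicate 1, 2 or 3 it gave 378 of 408, 447 of 448 and 401 of 409 (34.2, 33.5 and 36.1% of all tested). The shares over all tested regions moved with the settings as well, and nothing is read from these counts. Left-out pairs gave 0.78 to 1.52. The difference in input share ran from −0.107 to 0.147 points with samples left out. Distance limits of 1000 and 100000 bp took in 14.8 and 94.4% of the 465. The Tbx5 log2 fold change at chr6:4818591-4819164 turned to 0.21 with a replicate block, 0.051 without Tbx5 alone replicate 1 and 0.01 without replicate 5 with all 3 factors, with a range of −0.21 to 0.051 over the samples left out. The cause was not tested for any of these. Of 374 values of 34 named regions under alternatives, 358 kept direction and side of the threshold, 9 lost the call, 4 gained it and 3 reversed. Depth limited the inputs most.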
